A study of Caenorhabditis elegans with 6 samples.

Results

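Genome windows of about 1 kb with high H3K9me3 but little H3K9me2, both relative to H3K27ac, were examined in the body wall muscle of L3 larvae of *Caenorhabditis elegans*. They were chosen by read counts from ChIC-seq, an assay in which an antibody against a histone mark directs protein A fused to micrococcal nuclease (MNase) to its target and the DNA released by cutting is sequenced. A window was taken when its H3K9me3 value exceeded the mean of the H3K27ac libraries by more than 0.75 and its H3K9me2 value exceeded that mean by at most 0.25, both on the scale log2(scaled reads + 8). Scaled reads are reads divided by the library total and multiplied by the average total, so that all libraries have one size. Windows averaging under 20 scaled reads over the 4 libraries made with an antibody were left out, as was the mitochondrial genome. Of 100293 windows, 97811 were kept and 2085 met the rule. These 2085 are called the H3K9me3-only windows. The name stands for the rule, not for an absence of H3K9me2 or for high H3K9me3 in absolute terms.

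Of the 6 libraries, the 3 made with an antibody in wild type (WT, N2 (Bristol)) were H3K9me2, H3K9me3 and H3K27ac. The mutant *met-2(n4256) III* had a library for H3K27ac, and each genotype had an MNase control made without antibody. No H3K9me2 or H3K9me3 library of the mutant was used here. The study obtained muscle cells by sorting on a red fluorescent protein under muscle-specific expression, and the labels name L3 body wall muscle for every library. That tissue was not checked against muscle marker genes here, because no gene annotation of the build of the counts, ce10, was used.

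Methylation of lysine 9 of histone H3 is a mark of silent chromatin. In *C. elegans* MET-2, a relative of the mammalian enzyme SETDB1, places the first methyl groups on this lysine, and SET-25 can place the third. Methylated H3K9 lies mainly on the outer arms of the autosomes, where repeated DNA is dense, whereas H3K27ac is found at active promoters and enhancers. A window in which the trimethyl mark stands above the acetyl mark without a matching dimethyl signal is therefore one in which signals often seen together were measured apart.

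The libraries held between 2475550 reads in the *met-2* control and 28519008 reads for H3K9me3. The median number of reads in an H3K9me3-only window was 343 in the H3K9me3 library and 125 in the H3K9me2 library. The H3K27ac libraries gave 74 (WT) and 149 (*met-2*) reads there, and the controls 47 (WT) and 18 (*met-2*). Each group had 1 library, so no spread between replicates exists, no test was run, and every difference below is a difference between libraries. Intervals for a single window or for its difference between libraries are 95% counting intervals, and intervals for a share are 95% Wilson intervals over windows, which are treated there as independent.

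H3K9me3 exceeded its threshold in 7801 of the kept windows (7.98%), and H3K9me2 was at or below its own threshold in 71.6% of them. The windows that met both conditions made up 2.13% of the kept windows. A further 3555 windows (3.63%) had both marks above 0.75, and 2161 (2.21%) had H3K9me3 above its threshold with an intermediate H3K9me2 value. In 5286 windows (5.4%) H3K9me2 was above 0.75 and H3K9me3 at or below 0.25, here called H3K9me2 alone. H3K9me3-only windows were thus 26.7% of all windows with high H3K9me3.

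**Figure D1:**
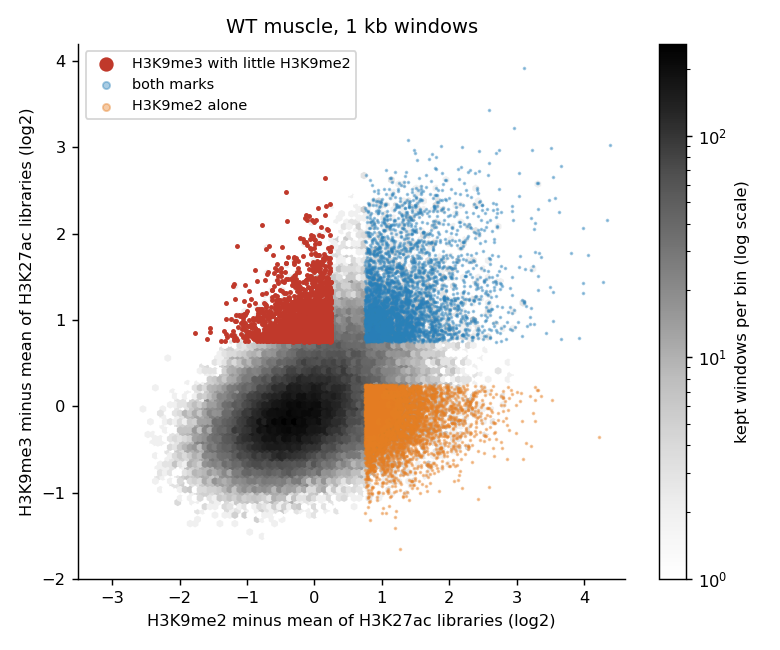
Each kept window of about 1 kb by its H3K9me2 value (x axis) and its H3K9me3 value (y axis), both log2 differences from the mean of the H3K27ac libraries, with grey shading for the number of windows on a log scale. The H3K9me3-only windows (red) form the upper left corner cut out by the rule, continuous with the main cloud, with the windows of both marks (blue) and of H3K9me2 alone (orange) beside it.

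The values that chose the windows are given as a description. H3K9me3 exceeded the H3K27ac mean by a median of 0.93 and at most 2.64, and H3K9me2 differed from that mean by a median of -0.09, with a range of -1.77 to 0.25. In 809 windows (38.8%) H3K9me2 was above the H3K27ac mean, near the 40.7% of all kept windows, whose median was -0.17. On this scale H3K9me2 was thus no lower than in kept windows, and the label of little H3K9me2 is relative to the thresholds. H3K9me3 stood above H3K9me2 by 1.13 at the median H3K9me3-only window and by 0.50 to 3.01 over all of these windows. The counting interval of that difference lay above 0 in all 2085. The rule sets a floor of 0.50 under the difference, so this count follows from the choice of windows. Many windows sat close to a threshold. The counting interval of the H3K9me3 value cleared its threshold in 824 windows (39.5%), that of the H3K9me2 value in 1145 (54.9%), and both in 420 (20.1%).

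The windows beside the thresholds were nearly alike. The last 2 inside the H3K9me3 threshold were at IV 16386972 to 16387971 and II 13264316 to 13265315, with values of 0.7504 and 0.7505. The first 2 outside it, at X 1928808 to 1929807 and V 17714005 to 17715004, had 0.7499 and 0.7498. At the H3K9me2 threshold, windows at IV 14314991 to 14315990 and V 2994141 to 2995140 were inside with 0.25 and 0.2493. Windows at V 18709995 to 18710994 and V 2163149 to 2164148 were outside, both at 0.25 to 2 decimals.

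In scaled reads, H3K9me3 at these windows ranged from 36.3 to 2130.6 with a median of 204.2, against a median of 158.9 over all kept windows. H3K9me2 ranged from 5.0 to 1058.5 with a median of 89, against 144.5. WT H3K27ac ranged from 5.0 to 816.7 with a median of 92.0, against 162.8, and *met-2* H3K27ac from 8.7 to 1018.0 with a median of 107.7, against 166.3. H3K9me3 was therefore 1.28 times its usual level and 71.7% of the windows lay above the kept median, while H3K27ac in WT was 0.565 times its usual level and 9.11% lay above. The rule compares marks within a window, and a high value also reflects the low H3K27ac reads that it is set against. In the windows with both marks the median H3K9me3 was lower, at 184.5 scaled reads, and so was that of WT H3K27ac, at 70.9.

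The controls, which the rule did not use, also differed. The WT control had a median of 80.8 scaled reads at the H3K9me3-only windows, with a range of 0.0 to 1347.2, against 125.4 over kept windows and 127.2 at windows with both marks. The *met-2* control had a median of 123.4, with a range of 0.0 to 3072.4, against 150.9 over kept windows. The WT control thus fell to 0.644 times its kept median, close to the 0.616 of H3K9me2, whereas the *met-2* control was at 0.818. Of the 2085, 7 were among the 1% of kept windows with most WT control reads and 18 among the 1% with most *met-2* control reads.

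**Figure D2:**
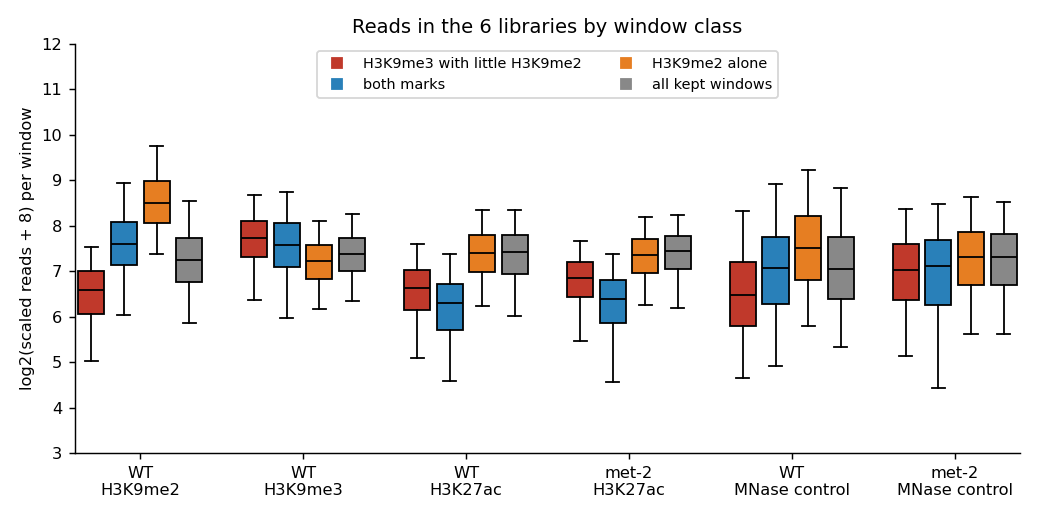
Log2(scaled reads + 8) per window in each of the 6 libraries for H3K9me3-only windows (red), windows with both marks (blue), windows with H3K9me2 alone (orange) and all kept windows (grey). Boxes span the quartiles with the median as a line and whiskers reach the 5th and 95th percentiles. In the red class only H3K9me3 stands above the grey boxes, and the WT control stands below them together with H3K9me2 and H3K27ac.

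The controls gave a measure of H3K9me3 that the rule had not used. Over the WT control, H3K9me3 was higher by more than 0.5 (log2) in 1658 of the 2085 windows (79.5%, interval 77.7 to 81.2), against 42.6% of all kept windows. Over the *met-2* control it was so in 1246 (59.8%, interval 57.6 to 61.8), against 29.5%. The medians of this enrichment were 1.25 and 0.67, against 0.32 and 0.09 over kept windows. Both controls were exceeded in 1046 windows (50.2%), against 15.9% of kept windows and 31.4% of windows with both marks, and neither was exceeded in 227 (10.9%), against 43.7% and 28.4%. The H3K9me3 library is the one the rule required to be high, so these shares describe the choice against another reference and are not independent of it.

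The same 2 references gave a less even account of H3K9me2. It exceeded both controls by more than 0.5 in 98 of the H3K9me3-only windows (4.7%), against 14.3% of all kept windows and 33.2% of windows with both marks, and it exceeded neither in 64.3%, against 50.1% of kept windows. The median H3K9me2 enrichment was 0.07 over the WT control, against 0.19 over kept windows, and -0.52 over the *met-2* control, against -0.025. Over the *met-2* control 235 windows (11.3%) were above 0.5, against 28.0% of kept windows, and 1063 (51.0%) were below -0.5, against 28.4%. Over the WT control 608 windows (29.2%) were above 0.5, against 36.2% of kept windows, and 542 (26.0%) were below -0.5, against 22.9%. Of those past 0.5 in either direction, 52.9% were higher. With scaling by edgeR's trimmed mean of M values (TMM) this share was 41.3%. TMM moved the median over kept windows by -0.28 for H3K9me3 over the WT control and by -0.16 for H3K9me2 over it, so levels over that control are relative to such a shift. The controls themselves differed by more than 0.5 in 1429 of the windows (68.5%), near the 65.2% of all kept windows, with 18 reads in the *met-2* control at the median window. Replacing the H3K27ac mean in the rule by the WT control gave 5224 windows, which held 28.5% of the H3K9me3-only windows, and replacing it by the *met-2* control gave 3649, which held 28.8%. Membership thus depended strongly on the reference.

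H3K9me3-only windows lay mainly on the autosome arms. With the arm and centre borders given in the study's methods, 1845 of 49646 kept windows of the autosome arms met the rule (3.72%) and 80 of 30701 in the centres (0.261%), a difference of 3.46 percentage points (interval 3.28 to 3.63). The arms had the higher share in 5 of 5 autosomes and in 10 of 10 arms. Windows with both marks followed the same division, at 6.28% against 0.472%, whereas windows with H3K9me2 alone did not, at 5.76% against 5.23%. The centre of chromosome III held 2 H3K9me3-only windows among 6326 kept windows.

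The arms were unequal. On the right arm of chromosome IV, known for the larger cluster of piRNA genes, 491 of 5128 kept windows met the rule (9.57%, interval 8.8 to 10.4). The right arm of V, rich in families of chemoreceptor genes, had 471 windows (6.88%), the left arm of II 272 (5.98%) and the left arm of V 317 (4.08%). Together these 4 arms held 1551 H3K9me3-only windows (74.4%) with 24.8% of the kept windows. The other autosome arms ranged from 0.49% on the left of I to 2.25% on the left of III. Chromosome X, not divided into arms and centre here, had 160 windows (0.916%), of which 136 lay in the first 25% of its length. In that first part 3.18% of the kept windows met the rule, against 0.182% in each later 25%.

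The right arms of IV and V differed in how often H3K9me3 came without H3K9me2. On IV, 491 of the 1146 windows with high H3K9me3 had little H3K9me2 (42.8%) and 328 had both marks. On V, 471 of 2457 did (19.2%) and 1366 had both marks. Outside the right arm of IV the share was 24.0%. It was the single one of 16 chromosome segments in which H3K9me3-only windows outnumbered windows with both marks. Its H3K9me3-only windows had a median of 67.6 scaled reads for H3K9me2, 173.2 for H3K9me3 and 75.8 for WT H3K27ac. Those on the right arm of V had 96.1, 219.7 and 92.0, so the reads of all 3 marks were lower on IV. The WT control was lower there too, at 58.4 scaled reads against 85.9. Whether these lower counts bear on the different shares was not tested.

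**Figure D3:**
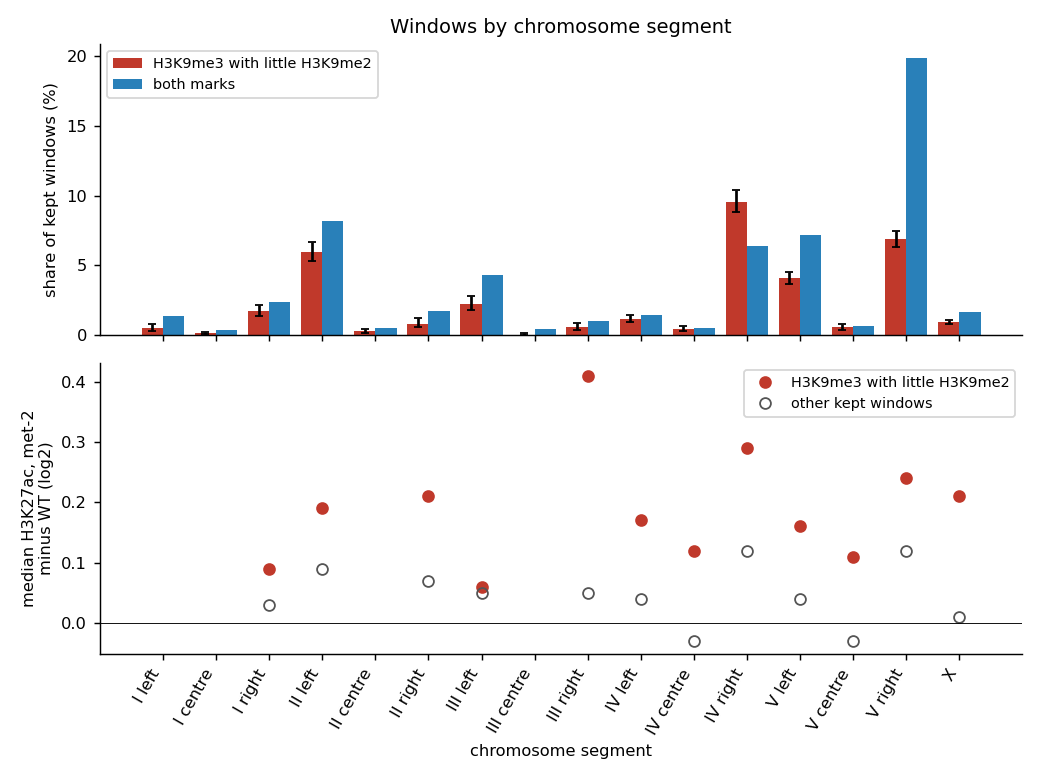
The upper panel gives the share of kept windows (%) in each arm and centre of the autosomes and in X that were H3K9me3-only (red, with 95% Wilson intervals) or had both marks (blue). The lower panel gives the median log2 difference in H3K27ac, *met-2* minus WT, of H3K9me3-only windows (filled) and of other kept windows (open) in the 12 segments with 20 or more H3K9me3-only windows. Red exceeds blue on the right arm of IV, and the filled points lie above the open ones in all 12 segments.

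Most of the windows stood alone. They formed 1687 runs, of which 1395 were single windows, 217 were pairs, 52 had 3 windows, 16 had 4, 6 had 5 and 1 had 6. A directly adjacent H3K9me3-only window was found for 690 of them (33.1%, interval 31.1 to 35.1), against the 2.13% of kept windows in the class. The share was 55.6% for windows with both marks, whose longest run was 23 windows, and 21.9% for windows with H3K9me2 alone. Set against how common each class was, these shares were 15.5, 15.3 and 4.1 times the class's share of kept windows. This ratio counts either side and includes the regional density of a class. By it H3K9me3-only windows and windows with both marks were alike, though the former lay in shorter runs.

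High H3K9me3 was frequent in the windows directly beside the class and also further away. With windows of the class counted too, it was found in 52.3% of kept windows directly before and 53.0% directly after. At 20 windows away the shares were still 39.6% before and 38.4% after. Of the 3030 kept windows next to a run of any length and not themselves in the class, 1206 (39.8%) had high H3K9me3, against 7.98% of all kept windows. In 639 of them (21.1%) both marks were high, against 3.63%, and H3K9me2 alone was seen in 1.62%, against 5.4%. At these neighbours H3K9me3 exceeded the H3K27ac mean by a median of 0.65 and H3K9me2 by 0.38. Within the autosome arms alone, 41.1% of the 2682 neighbours had high H3K9me3, against 8.78% of the other 45119 windows outside the class.

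The profile along the chromosome differed between the marks. Relative to the kept median, H3K9me3 was at 0.35 (log2) in the H3K9me3-only windows and at 0.14 on average 2 to 5 windows away. H3K9me2 was at -0.65 in the windows and at -0.16 in the same flanks. This dip was narrow, with H3K9me2 at -0.25 in the window before and -0.23 in the window after. WT H3K27ac was low throughout, at -0.77 and -0.71, and *met-2* H3K27ac at -0.59 and -0.56. The WT control dipped with H3K9me2, to -0.59 from -0.26, and the *met-2* control less, to -0.27 from -0.14. The rule fixed the centre of the mark profiles but not their flanks, and it used neither control. Whether the dip of the WT control and that of H3K9me2 are related was not tested.

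**Figure D4:**
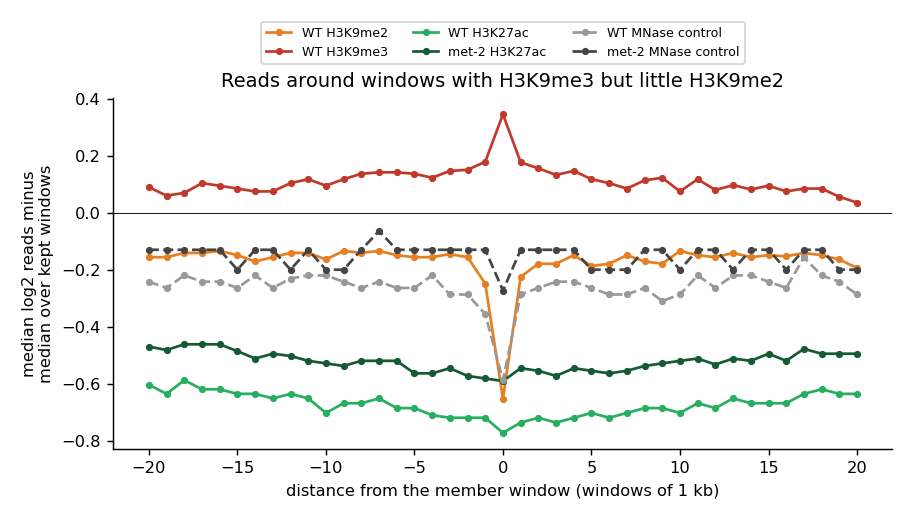
Median log2 reads minus the median over all kept windows (y axis) at distances of up to 20 windows of 1 kb on either side of the H3K9me3-only windows (x axis), for the 4 mark libraries (solid) and the 2 controls (dashed). H3K9me3 peaks at 0.35 at the centre, H3K9me2 falls to -0.65 and the WT control to -0.59, and both H3K27ac lines stay between -0.4 and -0.8.

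The longest run covered 6 windows on the right arm of IV, from 16789969 to 16795967. H3K9me3 there ranged from 98.8 to 217.9 scaled reads and H3K9me2 from 29.2 to 84.0, so the marks did not overlap in range. WT H3K27ac ranged from 34.8 to 74.6 and *met-2* H3K27ac from 58.6 to 107.7, with the mutant library higher in 6 of 6 windows. Of the 6 runs of 5 windows, those with the highest H3K9me3 values lay at X 1774809 to 1779808, II 1930421 to 1935420 and V 18225000 to 18229999. In the run on X, H3K9me3 ranged from 254.8 to 565.5 scaled reads and H3K9me2 from 40.6 to 103.9. In that on II the ranges were 211.3 to 360.2 and 61.2 to 117.5, and in that on V 135.7 to 216.7 and 51.3 to 103.9. H3K9me3 was thus strongest on X, and in none of the 4 runs did its range reach down to that of H3K9me2. The rule placed H3K9me3 above H3K9me2 within every window of these runs. It favours this separation without fixing it across windows, so the separation is given as a description.

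The windows with the highest H3K9me3 value over the H3K27ac mean included 2 on X. The first, X 1770810 to 1771809, had 770 H3K9me3 reads and 106 H3K9me2 reads. H3K27ac gave 59 reads (WT) and 84 (*met-2*), and the controls 32 (WT) and 20 (*met-2*). Its H3K9me3 value was 2.64 (interval 2.40 to 2.88) and its H3K9me2 value 0.16. The next was X 1774809 to 1775808, with 950 reads for H3K9me3 and 96 for H3K9me2 and a value of 2.48. The others, V 17196010 to 17197009 and IV 15188983 to 15189982, reached 2.35 and 2.32 with far fewer reads. The former had 264 H3K9me3 reads, 42 H3K9me2 reads and 17 WT H3K27ac reads, and the latter 147, 19 and 8.

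H3K9me3 exceeded H3K9me2 most at X 1781809 to 1782808, where 681 reads faced 61, a scaled difference of 3.01 (interval 2.68 to 3.33). The adjacent pair X 1774809 to 1775808 and X 1775809 to 1776808, in the run on X above, followed with 2.91 and 2.87. Next came IV 16477971 to 16478970, with 275 reads against 28 and a difference of 2.62. There the H3K9me3 value was only 0.85, whereas the H3K9me2 value of -1.77 was the lowest of all 2085. X 1774809 to 1775808 was thus an extreme by both measures, whereas the window on IV was one through its low H3K9me2.

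These windows on X belong to one stretch, picked after its values were seen. From X 1770810 to 1810808, all 40 windows had H3K9me3 above its threshold, 19 of them H3K9me3-only and 11 with both marks. In scaled reads H3K9me3 had a lowest, median and highest value of 69.1, 400.0 and 752.5 over the stretch, against a median of 158.9 over all kept windows. H3K9me2 had 32.7, 101.4 and 467.0, WT H3K27ac 13.7, 88.9 and 184.0, and *met-2* H3K27ac 23.9, 94.4 and 172.1. Only H3K9me3 had a median above that of the kept windows. H3K9me3 exceeded the WT control by more than 0.5 in 36 of the 40 windows and the *met-2* control in 38. Of the 20 H3K9me3-only windows with the greatest excess of H3K9me3 over H3K9me2, 6 lay here, and 93 of the 160 such windows of X lay within 200 kb of its start.

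**Figure D5:**
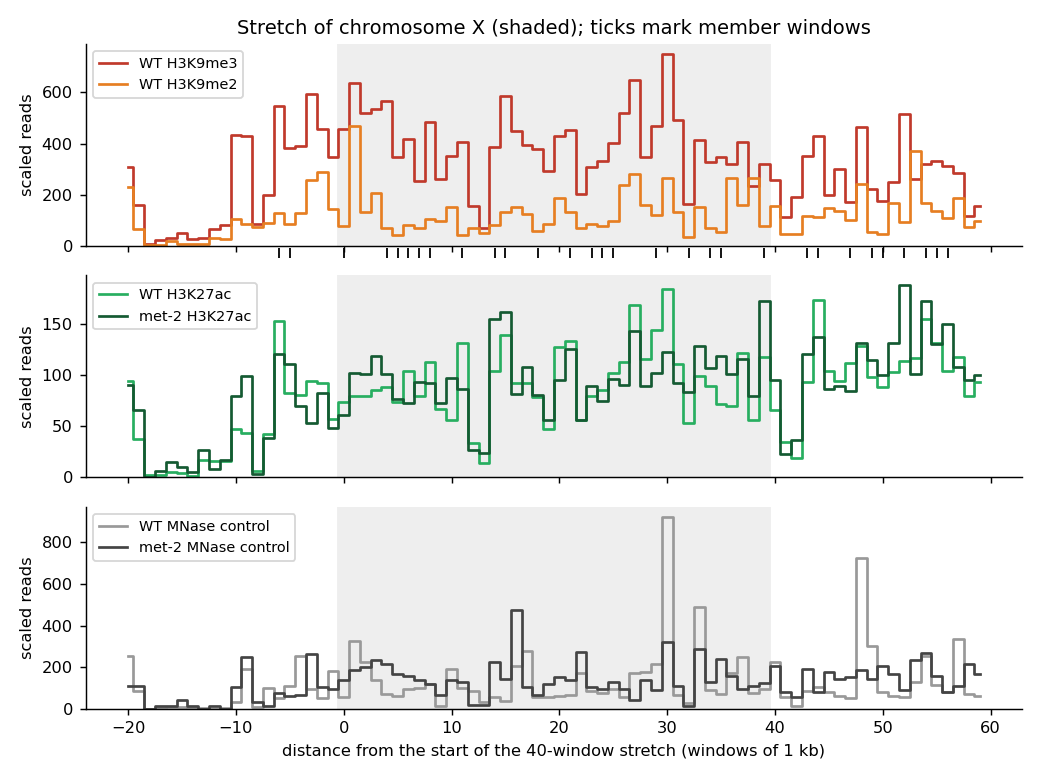
Scaled reads per window of 1 kb (y axes) in the 6 libraries along the X stretch (shaded) and the 20 windows on either side, by distance from the start of the stretch, with ticks for H3K9me3-only windows. H3K9me3 is far above H3K9me2 over nearly the whole shaded part, with a median of 400.0 against 101.4, while the H3K27ac medians are 88.9 (WT) and 94.4 (*met-2*). Single windows of the WT control reach 924.5.

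The other stretches of 40 windows richest in the class, picked likewise, lay on IV and II. That at IV 16066975 to 16106974 held 21 H3K9me3-only windows, with median scaled reads of 142.9 for H3K9me3 and 73.3 for H3K9me2. Those at IV 15589980 to 15629978, IV 16770969 to 16810967 and IV 15373982 to 15413980 held 20, 18 and 17. The stretch at II 1895421 to 1935420 held 20, with medians of 246.5 for H3K9me3 and 126.4 for H3K9me2. Reads were thus fewer on IV than on II or X for both marks.

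H3K27ac was compared between the mutant and WT at the same windows. Both H3K27ac libraries entered the rule through their mean, so the difference between them is a description. It had a median of 0.21 (log2, interval over windows 0.19 to 0.23) at the H3K9me3-only windows, against 0.01 over kept windows, 0.10 at windows with both marks and -0.06 at windows with H3K9me2 alone. A gain above 0.5 in the mutant was seen in 456 windows (21.9%), against 7.06% of kept windows, and a loss of that size in 45 (2.16%), against 2.97%. It was higher by any amount in 1486 (71.3%), against 52.0%. The counting interval lay above 0 in 657 windows (31.5%), against 16.2% of kept windows, and below 0 in 108 (5.18%), against 13.9%.

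In summed reads the windows took 1.2% of the WT and 1.38% of the *met-2* H3K27ac reads, a ratio of 1.15. Their share of the control reads differed in the same direction, at 1.4% in WT and 1.81% in *met-2*. The median difference between the controls, *met-2* minus WT, was 0.53 at these windows, larger than the 0.21 of H3K27ac. It was 0.19 over kept windows, falling to -0.02 under TMM scaling. At windows with both marks it was -0.02 and at windows with H3K9me2 alone -0.24, so these classes fell in the same order as for H3K27ac. Set against all kept windows the order was not the same. Windows with both marks were below kept windows in the control difference but above them in H3K27ac (0.10 against 0.01). The part of the control difference in that of H3K27ac was not tested.

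The size of the H3K27ac difference depended on the reference of the rule. Its median was 0.31 where the WT H3K27ac library alone served as reference, which favours windows low in WT, and 0.08 where the *met-2* library alone did. It stayed above that of all kept windows either way. It also followed the H3K27ac level. When the 2085 windows were placed in 5 groups of 417 by their H3K27ac mean, the medians were 0.28, 0.28, 0.23, 0.19 and 0.09 from lowest to highest. Other kept windows in the same ranges had 0.15, 0.16, 0.13, 0.09 and -0.03, so that the H3K9me3-only windows were higher in each of the 5. The highest range held 63997 other kept windows beside its 417, so H3K27ac levels within it may have differed.

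By position, the median H3K27ac difference was higher in H3K9me3-only windows than in other kept windows in 12 of the 12 segments with at least 20 of them, by 0.01 on the left arm of III to 0.36 on the right arm of III. The share of windows higher by more than 0.5 exceeded that of other windows in 11 of the 12, the exception being the left arm of III with 7.79% against 10.1%. The 3030 windows beside the class had a median of 0.14, with 15.1% higher by more than 0.5. On the autosome arms the neighbours had a median of 0.15 and the other windows outside the class 0.06. On the right arm of IV 29.3% of the H3K9me3-only windows were higher by more than 0.5, against 13.4% of other windows there.

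Single windows showed larger differences. At V 19817985 to 19818984, WT H3K27ac had 29 reads (36.0 scaled) and *met-2* H3K27ac 244 (176.4 scaled), a log2 difference of 2.07 (interval 1.60 to 2.53). The controls there also differed, at 24.1 scaled reads in WT and 109.7 in *met-2*. At V 17172010 to 17173009 the reads were 18 and 138, with a difference of 1.83, and the controls were at 15.5 and 164.6 scaled reads. At II 1913421 to 1914420 they were 43 and 265, with a difference of 1.70, and the controls were at 132.3 and 171.5. The part of the control differences in these values was not tested. The window on II lies in the stretch on II described above, where H3K27ac was higher by more than 0.5 in 24 of 40 windows and by a median of 0.68. In the X stretch the median difference was 0.08, so dense H3K9me3-only windows were found both with and without more H3K27ac in the mutant.

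In the opposite direction, H3K27ac fell from 74 reads in WT (92.0 scaled) to 56 in *met-2* (40.5 scaled) at IV 17035966 to 17036965, a difference of -1.04 (interval -1.48 to -0.61). At V 15249028 to 15250027 the reads were 45 and 35, with -0.94, and at V 19792985 to 19793984 they were 78 and 70, with -0.84. The lowest differences were thus smaller in size than the highest. The controls at these 3 windows were at 73.9, 8.6 and 60.1 scaled reads in WT and 102.9, 82.3 and 123.4 in *met-2*.

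The windows also differed among themselves by H3K9me2. The 1043 with the lower H3K9me2 values over the H3K27ac mean had a median of 70.5 scaled reads for H3K9me2 and 200.6 for H3K9me3, and the other 1042 had 107.5 and 208.7. H3K9me3 thus differed little between them. The H3K27ac difference had medians of 0.26 and 0.16. The 690 windows with an adjacent H3K9me3-only window had a median H3K9me3 value of 1.0 over the H3K27ac mean and the 1395 single ones 0.9, with H3K27ac differences of 0.22 and 0.20.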

How the data were processed

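ChIC-seq libraries of sorted L3 body wall muscle were analysed, 1 per group, with groups taken from the sample titles. The deposited values are raw read counts per window. For these the authors used Trimmomatic 0.39 for trimming, aligned the reads to ce10 with bowtie2 in sensitive mode, removed duplicates with Bismark and counted reads of either orientation with QuasR. The windows in the table are about 1 kb wide, broader than those the methods name. How reads mapping to several places were handled is not given in the sources used here, so counts over repeats are uncertain. The adaptor carried a short molecular identifier, and whether it was used in removing duplicates is not given in the sources used here either. Removal of duplicates can lower the counts of windows with many reads.

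Scaling to library totals and log2 after adding 8 reads were as in the study's methods. The pseudocount draws differences at windows with few reads towards 0. Counting intervals of windows came from the read counts and cover counting error only. Scripts used Python 3.11.15, numpy 2.4.6, pandas 2.3.3 and scipy 1.17.1, and R 4.3.3 with edgeR 4.0.16 for TMM scaling only. They were tested on simulated data. The members and lists were chosen with earlier results of these data known. Regions were named on chromosomes II, III, IV, V and X as the 4 longest runs, the 4 windows with the highest H3K9me3 value and the 4 with the highest excess over H3K9me2, the 3 highest and 3 lowest H3K27ac differences, and the 2 windows on either side of each threshold. Stretches of 40 windows were added after their values were seen. Gene lists were not analysed here, because the annotation at hand is of another build than ce10, and no sequences were read.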

Additional observations from a re-analysis of the deposited data

Results flagged for a closer look

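The mitochondrial genome was left out of the rule and of every comparison. Its 14 windows took 1.13% of the H3K9me3 reads, 1.98 times the share of 0.569% in the WT MNase control. The share was 0.59% for H3K9me2, 0.0787% for WT H3K27ac, 0.0781% for *met-2* H3K27ac and 1.27% in the *met-2* control, so H3K9me3 lay between the controls.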

How the results depend on the processing

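No paired analysis was possible because only 1 library represents a group, and no library could be left out for the same reason. Of 63 recomputed shares and medians, 29 lay within the interval over windows of the reported value and 34 outside it. Of 12 recomputed counts of windows, 6 were within 1.5 times the reported count and 6 were not. Of all 75 values, 0 changed sign, which counts and shares of windows cannot do. Only the H3K27ac medians and the arm minus centre differences could have. The cause of the shifts in the recomputed values was not tested. The count of 2085 windows became 828 with an H3K9me3 threshold of 1, 1276 with an H3K9me2 threshold of 0, 484 when 3 adjacent windows were summed, 5224 and 3649 with the WT and *met-2* controls as reference, and 420 where both counting intervals cleared the thresholds. The median H3K27ac difference of 0.21 became 0.31 with WT H3K27ac alone as reference, 0.08 with *met-2* H3K27ac alone, 0.24 with an H3K9me2 threshold of 0, 0.24 in the 420 windows and 0.16 in the 1042 windows with the higher H3K27ac mean. The share with H3K9me3 above the WT control (79.5%) became 72.7% under TMM scaling, 77.7% with totals without the mitochondrial genome and the windows richest in control reads, 84.5% and 83.5% with the stricter H3K9me3 and H3K9me2 thresholds, 85.5% in the 420 windows and 60.8% at a threshold of 1 over the control. Above the *met-2* control (59.8%) it became 55.6% under TMM, 55.5% with WT H3K27ac alone, 71.0% with the stricter H3K9me3 threshold, 53.7% with summed windows, 71.7% in the 420 windows and 32.3% at a threshold of 1. The share with an adjacent window (33.1%) became 28.8% under TMM, 29.1% and 25.9% with the stricter H3K9me3 and H3K9me2 thresholds, 36.6% with summed windows and 18.8% in the 420 windows. The arm minus centre difference (3.46 points) became 3.82 with a pseudocount of 1, 2.8 under TMM, 4.12 and 2.87 with WT or *met-2* H3K27ac alone, 1.44 and 2.09 with the stricter thresholds, 2.43 with summed windows and 0.71 in the 420 windows. The share on the right arm of IV (42.8%) became 37.5% under TMM, 39.3% with *met-2* H3K27ac alone, and 32.7% and 29.8% with the stricter thresholds. The reference of the *met-2* library, the 420 windows, the 1042 windows and all values for the right arm of IV were chosen after seeing the data. TMM scaling kept 79.0% of the windows, and a pseudocount of 1 kept 96.5%. The *met-2* control is the shallowest library and limits every value set against it.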
